A study of Gallus gallus with 6 samples.

Results

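The 9 enzymes GART, PAICS, ATIC, ADSL, ADSS2, PPAT, UMPS, RPIA and PGD make purine nucleotides (6 of them), a pyrimidine nucleotide (UMPS) or the pentose phosphates that feed both routes (RPIA and PGD). They were chosen by gene symbol, as enzymes of nucleotide synthesis and the pentose phosphate pathway. The choice was made with earlier results of these data known, so comparing their counts with all genes describes them and is not a test. All 9 had probe sets with that single symbol in the array annotation, 16 probe sets in all, out of 13009 genes and 38439 probe sets tested. The samples were 3 Affymetrix Chicken Genome arrays of cultured chicken primordial germ cells (PGC), the precursors of eggs and sperm, and 3 of fibroblasts (CEF), the cells of connective tissue, cultured from chicken embryos. PGC came from blood of embryos at day 2.5, pooled from 20 embryos for each replicate, and were grown in knockout DMEM with human bFGF at 10 ng/ml. CEF came from bodies of embryos at day 6.5 without limbs and internal organs, from 5 embryos for each replicate, and were grown to passage 2 in DMEM with 10% fetal bovine serum. Age, medium and cell type differ together, and possibly serum, which is recorded for CEF only. A difference between the groups therefore cannot be assigned to one of them. No strain or genotype is given in the labels.

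Cells build purines on a ribose phosphate that the pentose phosphate pathway supplies as ribose 5′-phosphate and that is then activated to PRPP. The ring is assembled atom by atom on that sugar, with carbon units from formyl folate, to give inosine monophosphate (IMP), from which AMP and GMP branch. Pyrimidines are made the other way round: the ring is closed first and is then attached to PRPP, and UMPS makes the resulting UMP. Dividing cells draw on both routes for RNA and DNA, and salvage enzymes refill the same pools from free bases and nucleosides.

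Of the 9 genes, each taken by its brightest probe set, 6 were higher in PGC (PPAT, GART, ATIC, ADSS2, UMPS and RPIA), 1 was higher in CEF (PAICS) and 2 passed no call (ADSL and PGD). A call needed an adjusted p under 0.05 in limma, a linear model fitted across all probe sets, with Benjamini-Hochberg adjustment, and at least a 2-fold difference, which is 1 on the log2 scale. Over all 13009 genes the same rule called 32.5%, with 17.6% on the PGC side and 14.9% on the CEF side. Counted as probe sets, 12 of 16 were called, 11 towards PGC and 1 towards CEF, where the background over all probe sets was 24.6% (14.6% and 10.1%). These shares include dim probe sets and genes. With limma run only on the 26183 probe sets above the background level given below, 9323 were called, a higher share. Of the 13009 genes 1548 averaged under that level in both cell types, and of the 9 genes 0 did. The median difference of the 9 genes was 1.07 on the log2 scale, PGC minus CEF, against -0.05 over all genes. On all 16 probe sets the 3 arrays of one cell type lay apart from the 3 of the other, as they did on 59.8% of all probe sets and, by brightest probe set, for 71.2% of all genes. That share is so high that the separation says little about these enzymes in particular.

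Expression is given as deposited, on a scale read as log2, where a step of 1 is a doubling of signal. Values on the 6 arrays had medians between 2.69 and 2.77. The background level, the 95th percentile of 687 probe sets without the prefix of chicken genes and without a gene symbol, averaged 1.68 in PGC and 1.97 in CEF. Of the 16 probe sets 14 lay above it on all arrays of at least 1 cell type. The other 2, of PAICS and ADSS2, were not above background on any array. The cell type labels could be checked against marker genes: 8 of 8 measured germ cell markers were called higher in PGC and 9 of 10 fibroblast markers higher in CEF, all but PDGFRA. Leukocyte markers also moved with the contrast, with 8 of 10 called higher in CEF and 1 in PGC, and a summed level (log2 of the summed linear values) of 8.18 to 9.61 on CEF arrays against 6.56 to 6.65 on PGC arrays. C1QB, SPI1 and CD3E averaged under background in PGC, at 1.49, 1.16 and 0.99, and CD3E also in CEF, at 1.43. The other leukocyte markers averaged above background in PGC, from 2.06 (C1QA) to 5.29 (CYBB, the one called higher in PGC). PGC cultures were started from blood, and of 8 measured erythroid markers limma called 0, with 3 at an unadjusted p under 0.05, all lower in PGC (summed level 5.80 to 5.86 in PGC, 6.08 to 6.16 in CEF). The part of other cells in the results below was not tested, and in bulk RNA fewer cells of a type cannot be told apart from less RNA per cell.

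**Figure D1:**
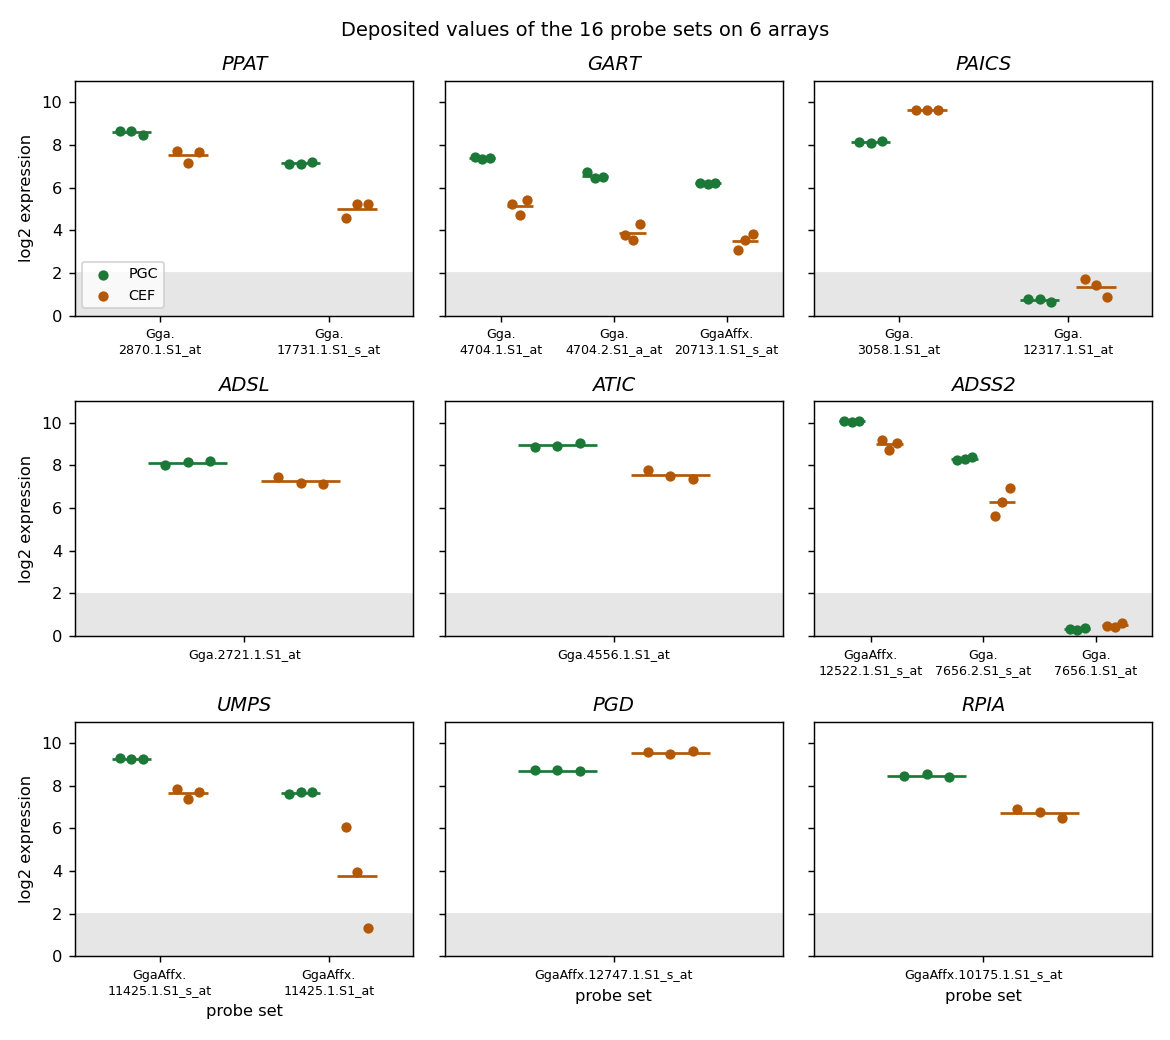
Log2 expression (y axis) of each probe set (x axis) on the 3 PGC and 3 CEF arrays, one panel for each enzyme. Points are arrays, horizontal lines are group means and the grey band lies under the mean CEF background level of 1.97. In the PAICS and PGD panels the CEF points lie higher, as they also do on the ADSS2 probe set under background. The second UMPS probe set has CEF points spread from 1.34 to 6.06.

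PPAT, the amidotransferase that commits PRPP to purine synthesis and is inhibited by the end products, was higher in PGC on both of its probe sets. On the brighter one it read 8.67, 8.64 and 8.46 on the PGC arrays and 7.72, 7.16 and 7.67 on the CEF arrays. That is a log2 difference of 1.07 ± 0.15 (limma's moderated SE, n = 3 and 3), or 2.10-fold, with a limma adjusted p of 0.00038. A moderated SE also draws on the spread of other probe sets, and ± has this meaning unless stated otherwise. The dimmer one, of the type whose probes can be shared between transcripts, read 7.12, 7.11 and 7.21 in PGC and 4.57, 5.22 and 5.26 in CEF, a difference of 2.13 ± 0.19. The PGC arrays lay close together on both, and the CEF arrays were all lower. The brighter probe set sits just above the 2-fold minimum: without CEF replicate 2 its difference was 0.90 and the call ended, and it was 0.95 when arrays were centred on the 75th percentile. The dimmer probe set kept its call in both.

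GART had the largest difference of the 9 genes by brightest probe set. It is one protein that carries out several of the early steps of ring assembly, among them a transfer of formyl from folate. Its brightest probe set read 7.46, 7.36 and 7.41 in PGC and 5.23, 4.72 and 5.44 in CEF. The lowest PGC array thus lay well above the highest CEF array, and the difference was 2.28 ± 0.18, or 4.87-fold (limma adjusted p = 1.08e-05). The other GART probe sets gave 2.69 ± 0.20 and 2.73 ± 0.19, so that all 3 differed in the same direction and by similar amounts. Chicken GART lies on chromosome 1 beside a related gene, GART-B, in the GRCg7b assembly of RefSeq. The array has separate GART-B probe sets, which averaged 2.01 and 1.76 in PGC and 2.28 and 1.61 in CEF and were not called. Whether GART probes also bind GART-B RNA was not tested.

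PAICS, the enzyme that carboxylates the imidazole ring and couples aspartate to it, went the other way. Its bright probe set read 8.15, 8.08 and 8.19 in PGC and 9.64, 9.65 and 9.63 in CEF. Its CEF values were the tightest of the 14 probe sets above background, with an SD of 0.013. PAICS was therefore 2.83-fold higher in CEF, with a log2 difference of -1.501 ± 0.07 and the smallest adjusted p of the 16 probe sets (limma, 3.69e-07). The second PAICS probe set lay under background everywhere (0.64 to 0.79 in PGC, 0.88 to 1.71 in CEF) and gives no size.

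PPAT and PAICS are neighbouring genes. In GRCg7b they follow each other on chromosome 4, with overlapping annotated spans. In chicken they are known to be transcribed in opposite directions from a shared control region, which is background and was not measured here. Set against each other within each array, which cancels a constant shift of the whole array, PPAT minus PAICS was 0.52, 0.55 and 0.28 in PGC and -1.93, -2.49 and -1.95 in CEF. The zero point of such a value depends on the 2 probe sets and has no meaning of its own. Its change between cell types, 2.57 ± 0.20 on the log2 scale, shows that the 2 neighbours did not change alike. With the other PPAT probe set this change was 3.63 ± 0.23. For all within-array changes ± is the ordinary SE from the 3 PGC and 3 CEF arrays, not limma's. This pair and the other within-array pairs given here each set a gene with the more positive difference against one with the more negative, and were chosen after the values were seen. Their direction is therefore fixed by that choice, and they are descriptions without a test.

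ADSL, a lyase that acts once on the way to IMP and again on the way to AMP, read 8.01, 8.17 and 8.23 in PGC and 7.46, 7.18 and 7.12 in CEF. The groups did not overlap and the difference, 0.88 ± 0.12, had a limma adjusted p of 0.00028, but it was 1.84-fold and missed the 2-fold minimum. Its 95% confidence interval, 0.61 to 1.15, includes a 2-fold difference. ATIC, which adds the last formyl group and closes the ring to IMP, read 8.87, 8.93 and 9.04 in PGC and 7.78, 7.51 and 7.34 in CEF. It was 2.64-fold higher in PGC (1.40 ± 0.12, limma adjusted p = 1.75e-05), and all PGC arrays lay above all CEF arrays.

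ADSS2, the adenylosuccinate synthase of most tissues, turns IMP towards AMP. Its brightest probe set read 10.09, 10.04 and 10.09 in PGC and 9.21, 8.73 and 9.06 in CEF, a difference of 1.07 ± 0.11. Like that of PPAT it lay near the 2-fold minimum, and fell to 0.93 without CEF replicate 2 and to 0.95 after centring on the 75th percentile, which ended the call. A second probe set read 8.27, 8.29 and 8.38 in PGC and 5.65, 6.30 and 6.94 in CEF, with a larger difference of 2.02 ± 0.27. The CEF arrays were spread widely there, with an SD of 0.64 against 0.06 in PGC. The third probe set was under background on all arrays, between 0.28 and 0.60, and pulled the mean of the 3 probe sets to 0.97, under the minimum. Both called ADSS2 probe sets are of the type whose probes can be shared between transcripts, and the third is not.

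The related enzyme ADSS1, the isozyme known from muscle, ran opposite to ADSS2: it was 6.08-fold higher in CEF (-2.60 ± 0.13, limma adjusted p = 7.00e-07), with 5.40 to 5.52 on the PGC arrays and 7.86 to 8.27 on the CEF arrays. A second ADSS1 probe set had a difference of -0.97 and was not called. Within each array ADSS2 minus ADSS1 was 4.56, 4.63 and 4.67 in PGC and 0.93, 0.87 and 1.04 in CEF, a change of 3.67 ± 0.06. Muscle markers were called higher in CEF for 2 of 5 measured genes, TNNT2 and ACTC1, with a summed level of 6.46 to 6.99 in CEF and 5.82 to 5.96 in PGC. MYOD1, MYOG and DES were not called, and the part of muscle cells in the ADSS1 value was not tested.

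**Figure D2:**
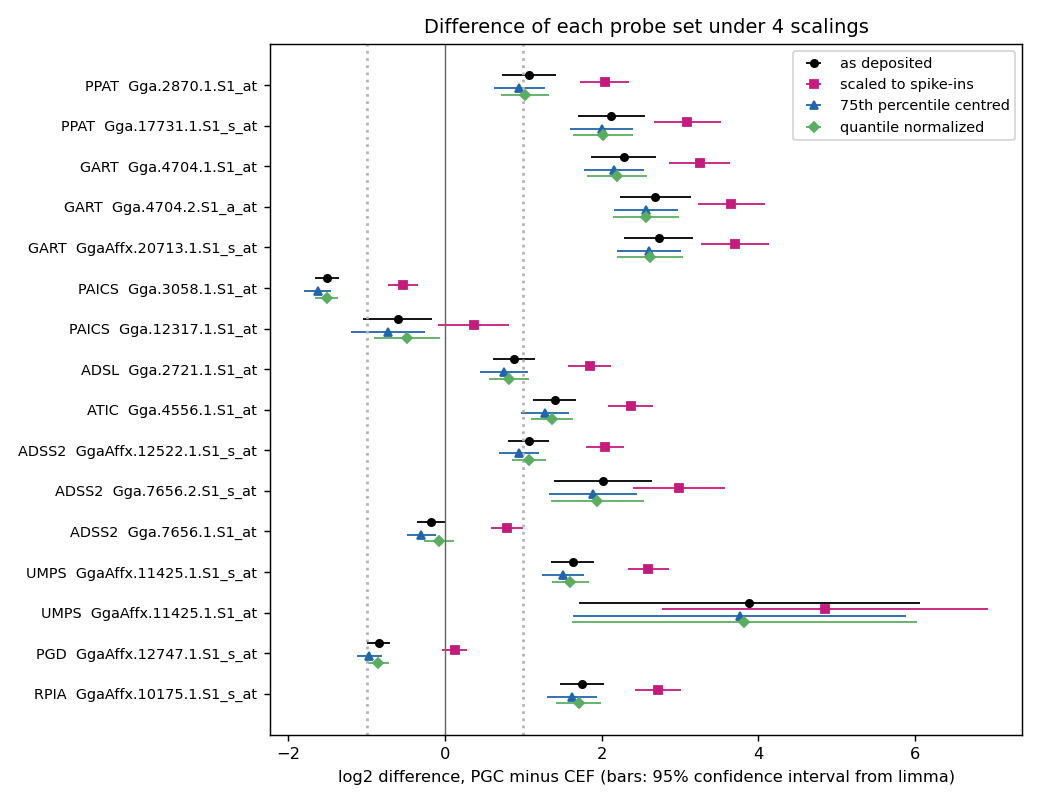
Log2 difference, PGC minus CEF (x axis), of each probe set (y axis) with the deposited values and under 3 other scalings. Points are limma estimates, bars their 95% confidence intervals, and dotted lines mark a 2-fold difference. All points of GART, ATIC, UMPS and RPIA lie beyond 1, whereas PAICS moves from -1.501 to -0.53 and PGD from -0.84 to 0.12 with spike-in scaling.

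UMPS, which makes orotate into UMP at the end of pyrimidine synthesis, was higher in PGC on both probe sets. The brighter read 9.32, 9.26 and 9.24 in PGC and 7.85, 7.38 and 7.70 in CEF, a 3.10-fold difference (1.63 ± 0.12, limma adjusted p = 6.39e-06). The dimmer, designed on the same transcript by its identifier, read 7.62, 7.69 and 7.69 in PGC but 6.06, 3.94 and 1.34 in CEF. On it the range among the 3 CEF arrays exceeded the mean difference from PGC, and CEF replicate 3 lay under the background of its array. Its difference of 3.89 ± 0.95 (limma adjusted p = 0.0089) therefore has no firm size: it was 2.67 without CEF replicate 3 and 5.03 without CEF replicate 1. The SE and p also assume the same spread in both cell types, whereas the SD was 0.04 in PGC and 2.36 in CEF. The call on this probe set is therefore uncertain too. The brighter probe set did not share this spread, with an SD of 0.24 in CEF. It is of the type whose probes can be shared between transcripts, and the dimmer is not.

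The pentose phosphate enzymes split. RPIA, the isomerase that makes ribose phosphate, read 8.45, 8.55 and 8.42 in PGC and 6.91, 6.76 and 6.48 in CEF, and was 3.37-fold higher in PGC (1.75 ± 0.12, limma adjusted p = 5.13e-06). PGD, the phosphogluconate dehydrogenase of the oxidative branch, which yields NADPH, read 8.72, 8.74 and 8.69 in PGC and 9.59, 9.49 and 9.61 in CEF. All PGC arrays of PGD were below all CEF arrays, but the difference of -0.84 ± 0.07 (limma adjusted p = 9.78e-06) was 1.79-fold, under the 2-fold minimum. Within each array RPIA minus PGD lay between -0.28 and -0.19 in PGC and between -3.13 and -2.67 in CEF, a change of 2.59 ± 0.15. Each gene has a single probe set, of the kind that can be shared between transcripts.

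**Figure D3:**
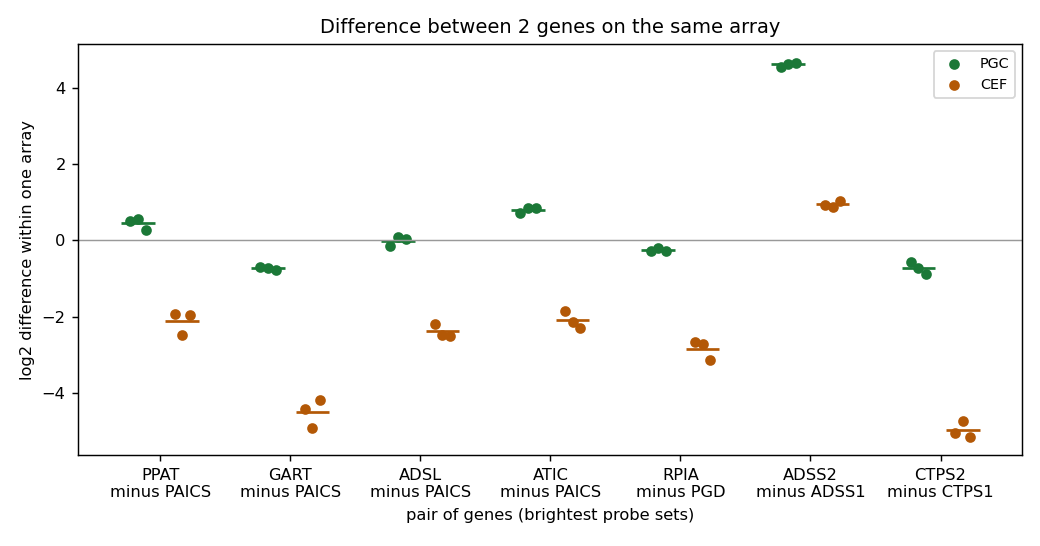
Difference between the log2 values of 2 genes on the same array (y axis) for 7 pairs (x axis), by their brightest probe sets. Points are arrays and lines group means. The pairs were chosen with their differences known, which fixes that PGC points lie above CEF points. The sizes are what the plot shows, for PPAT minus PAICS 0.28 to 0.55 in PGC against -2.49 to -1.93 in CEF, and a constant shift of an array would not move them.

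PPAT, GART, ATIC, ADSL, UMPS, RPIA and the 2 brighter probe sets of ADSS2 stayed higher in PGC under all 3 other scalings. The bright PAICS probe set and PGD kept their differences with 75th percentile centring (-1.62 and -0.97) and quantile normalization (-1.51 and -0.85). They moved with spike-in scaling. The spike-in RNAs bioB, bioC and bioD averaged 6.12 to 6.21 on PGC arrays and 7.08 to 7.17 on CEF arrays. With the signal of the spike-in RNAs bioB, bioC and bioD set equal across arrays, the median difference of all probe sets moved from -0.09 to 0.88. PAICS then differed by -0.53, which is -1.41 relative to that median, and was no longer called, while PGD turned to 0.12, or -0.76 relative to the median. ADSL, at 1.85, was called higher in PGC under that scaling. The brightest spike-in, cre, was not used for that scaling. It averaged 10.92 to 11.02 on PGC arrays and 11.08 to 11.14 on CEF arrays. That lay above the mean of every enzyme here in both cell types. The spike-ins thus did not differ alike between the cell types: cre differed far less than bioB, bioC and bioD. Whether scaling to them follows the amount of RNA was not tested.

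The CEF arrays carried most of the replicate error. On 13 of the 14 probe sets above background the SD was larger in CEF than in PGC, which was also so for 82.2% of all 26183 probe sets above background. PAICS was the exception. Among the 11 probe sets called higher in PGC, CEF replicate 2 was the lowest CEF array on 5, replicate 1 on 3 and replicate 3 on 3, so that no CEF array was low throughout.

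Other genes of the same pathways were taken from lists by role, 114 symbols in all, of which 91 had a probe set. Of these 91, limma called 23 higher in PGC and 7 higher in CEF, with a median difference of 0.12, against 17.6% and 14.9% of all genes. PRPS1, PFAS, IMPDH1, SHMT2, PGLS, RPE and TKT were among the 23 with no probe set of that symbol here and were not analysed.

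Around the purine route 2 of the 13 measured genes of PRPP supply and nucleotide phosphorylation were called in each direction, close to the shares over all genes. With spike-in scaling the counts were 6 in PGC and 2 in CEF, and with 75th percentile centring 2 and 4. PRPSAP2, a regulatory partner of PRPP synthetase, was 4.25-fold higher in PGC (2.09 ± 0.14), while the adenylate kinase AK4, found in mitochondria, was 5.63-fold higher in CEF (-2.49 ± 0.18). The other two called were AK6 in PGC and ADSS1 in CEF. PRPS2, a PRPP synthetase, differed by -0.996 ± 0.22 on its brightest probe set, which was dim, and was not called. That value lay at the 2-fold minimum. PRPS2 was called higher in CEF with 75th percentile centring (-1.12) and quantile normalization (-1.05), and differed by -0.03 with spike-in scaling. With 1 array left out it ranged from -1.14 to -0.78. Its other probe sets differed by 0.33 and -0.03. On the GMP branch GMPS (0.33 ± 0.11) was not called, nor was the brightest probe set of IMPDH2 (0.23 ± 0.07), but a second IMPDH2 probe set was called higher in PGC (1.13 ± 0.20). The list median of 0.02 turned to -0.11 with 75th percentile centring or quantile normalization and to 0.99 with spike-in scaling.

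Purine salvage and breakdown had 3 of 15 measured genes called higher in PGC and 1 in CEF, against 17.6% and 14.9% of all genes. ADA, adenosine deaminase, was 6.75-fold higher in PGC (2.75 ± 0.12) and its relative ADAL 7.22-fold (2.85 ± 0.11). As a mean of the 2 probe sets of each, ADA differed by 2.41 and ADAL by 1.99. HPRT1, which recovers hypoxanthine and guanine, was 2.57-fold higher in CEF (-1.36 ± 0.16, limma adjusted p = 0.00012), or -0.39 and not called after spike-in scaling. A second HPRT1 probe set differed by -0.88 and was not called. APRT, which recovers adenine, differed by 0.02 ± 0.13, a value that changed sign with the scaling (-0.10 with 75th percentile centring).

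Pyrimidine synthesis besides UMPS had 11 measured genes. Only CTPS2, a CTP synthase, was called by its brightest probe set, where over all genes 32.5% were called. It was 13.3-fold higher in PGC (3.73 ± 0.12, limma adjusted p = 6.72e-08), with 7.76 to 7.90 on PGC arrays and 4.01 to 4.24 on CEF arrays. A second CTPS2 probe set, under background in both cell types, differed by -0.02. Its isozyme CTPS1 differed by -0.53 ± 0.13. CAD, which opens the pathway, differed by 0.51 ± 0.14 on its brightest probe set, while 2 of its 3 dimmer ones were called higher in PGC (1.16 and 1.05). DHODH, the mitochondrial dehydrogenase before UMPS, differed by -0.67 ± 0.13. Limma called 0 of the 11 higher in CEF, where 5 had an unadjusted p under 0.05, and CTPS1 and DHODH turned to 0.44 and 0.30 after spike-in scaling. Pyrimidine salvage and breakdown had 3 of 14 called in each direction, against 17.6% (PGC) and 14.9% (CEF) of all genes. There the uridine phosphorylase UPP1 was 5.55-fold higher in CEF (-2.47 ± 0.17).

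Deoxynucleotide supply had 6 of 10 measured genes called higher in PGC, against 17.6% of all genes. Its median was 1.20, near that of the 9 enzymes. With 75th percentile centring 5 of the 10 were called higher in PGC, with quantile normalization 6 and with spike-in scaling 10. TYMS, thymidylate synthase, was 8.42-fold higher (3.07 ± 0.13), the deaminase DCTD, which makes its substrate, 7.22-fold (2.85 ± 0.11) and DUT, which clears dUTP, 4.04-fold (2.01 ± 0.10). As a mean of its 4 probe sets DUT differed by 1.35. Limma called 0 of the 10 higher in CEF, and at an unadjusted p under 0.05 the count was also 0. The list of folate one-carbon supply holds enzymes and transporters around the formyl folate that GART and ATIC use. It had 8 of 17 called higher in PGC, against 17.6% of all genes. That count was 6 with 75th percentile centring, 6 with quantile normalization and 13 with spike-in scaling. GLDC, the glycine decarboxylase, was 13.3-fold higher (3.73 ± 0.24) and the folate transporter SLC46A1 5.70-fold (2.51 ± 0.18) on its brightest probe set. A second SLC46A1 probe set differed by -0.36 and was not called. MTHFD1, which makes formyl folate, was 2.04-fold higher on its brightest probe set (1.03 ± 0.10). That call ended with 75th percentile centring (0.91), with quantile normalization (0.98) and without CEF replicate 2 (0.97). As a mean of its 2 probe sets MTHFD1 differed by 1.19. SHMT1 differed by 0.43 ± 0.15. Limma called 0 of the 17 higher in CEF, where 2 had an unadjusted p under 0.05. These were MTHFD2 (-0.82 ± 0.09) and another folate transporter, SLC19A1 (-0.78 ± 0.12), both under the 2-fold minimum. After spike-in scaling they turned to 0.15 and 0.18.

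The pentose phosphate list besides PGD and RPIA had 0 of 11 measured genes called higher in PGC by limma, with 1 at an unadjusted p under 0.05, and 1 called higher in CEF. Over all genes these shares were 17.6% and 14.9%. The gene called higher in CEF was PGM2, with -1.80 ± 0.13, or -0.83 and not called after spike-in scaling. The transaldolase TALDO1 differed by -0.30 ± 0.11 and turned to 0.67 after spike-in scaling. H6PD, the oxidative enzyme of the endoplasmic reticulum, differed by 0.12 ± 0.14. RPIA, at 1.75, thus had a larger difference towards PGC than every other measured gene of the list, the next being PGM1 at 0.45.

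**Figure D4:**
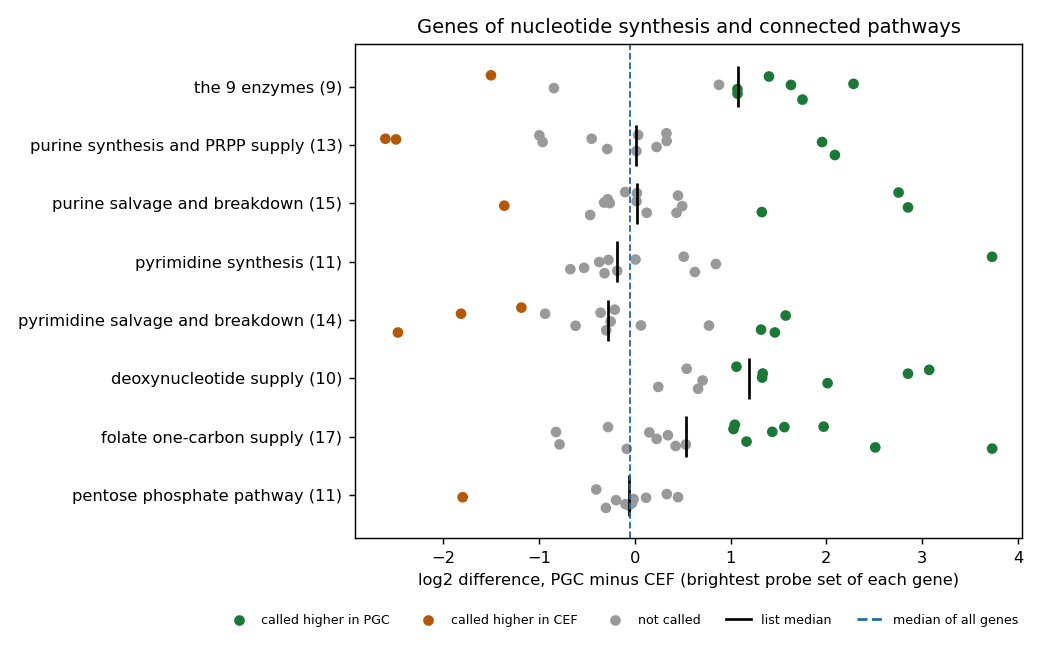
Log2 difference, PGC minus CEF (x axis), by brightest probe set, for the 9 enzymes and 7 further lists (y axis, number of measured genes in brackets). Points are genes coloured by limma call, black lines are list medians and the dashed line is the median of all genes at -0.05. The 9 enzymes and deoxynucleotide supply have medians of 1.07 and 1.20, and the pentose phosphate list one of -0.06.

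Over the 6 arrays the pathway gene most like each enzyme was sought by the smallest Euclidean distance between log2 values centred on each gene's mean, among the 91 other genes. ADSS2 lay closest to RRM2, a subunit of ribonucleotide reductase (distance 0.13), and PPAT to RRM2 as well (0.30). ATIC and UMPS lay closest to DTYMK, thymidylate kinase (0.18 and 0.44), and GART to DUT (0.51). PGD lay closest to MTHFD2, a mitochondrial folate enzyme (0.12), PAICS to UCK1, a uridine kinase (0.44), ADSL to NME3 (0.17) and RPIA to MTR (0.45). With 6 arrays in 2 groups such a distance mainly reflects the size of the difference between the cell types.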

How the data were processed

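The 6 arrays were Affymetrix Chicken Genome arrays hybridised with biotinylated cRNA from about 5 µg of total RNA, extracted with an RNeasy kit and treated with DNase, per the labels' protocols. The authors deposited 1 value for each of 38535 probe sets, read here as log2 expression normalized between arrays. The base and the normalization are inferred from the values, and all folds rest on base 2. MAS5 and GCOS are listed in the submitters' processing notes, without role or version. Array number limits the precision.

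The values were used unscaled, without the 96 AFFX control probe sets. The test of PGC against CEF was limma's moderated test (version 3.58.1, under R 4.3.3; eBayes with intensity trend, two-sided, 4 residual degrees of freedom), adjusted over 38439 probe sets. Probe sets were named by the array annotation (27178 with 1 symbol, 177 with several, 11180 with none), and symbols were matched exactly. A gene's brightest probe set stands for it. The analysis was tested on simulated data. Named by rule were all probe sets of the 9 enzymes, other pathway genes called with a log2 difference of at least 2, and the enzymes next to the 9. Some other genes were named to complete a count or a comparison. The genes, lists and background level were chosen with earlier results of these data known. The replicates are called biological in the labels. The p-values set each mean difference against the spread between these replicates, which limma draws towards that of probe sets of similar brightness. For each probe set the model takes this spread as equal in both cell types, although it was mostly larger in CEF. Each replicate came from 20 embryos (PGC) or 5 embryos (CEF), so the spread between single embryos was not measured. Alternatives were 3 other scalings, a filter on dim probe sets, other variance settings, a test against a 2-fold difference, the replicate block, leaving out each array, and the mean of a gene's probe sets.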

Additional observations from a re-analysis of the deposited data

How the results depend on the processing

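Spike-in scaling raised the probe sets called from 9469 to 17234 (15471 higher in PGC and 1763 in CEF), and limma's treat lowered them to 5664 (3245 and 2419). Spike-in scaling left 0 of the 9 enzymes and 0 of their probe sets called higher in CEF, and called 51 of the 91 other pathway genes (48 in PGC and 3 in CEF), where treat called 16 (11 in PGC). The cause was not tested. It turned PGD to 0.12, the dim probe sets of PAICS and ADSS2 to 0.37 and 0.79, DHODH to 0.30, CTPS1 to 0.44 and TALDO1 to 0.67. APRT turned to -0.10 with 75th percentile centring, to -0.095 with quantile normalization, and ranged from -0.065 (without CEF replicate 2) to 0.107 (without CEF replicate 3) when 1 array was left out, with -0.024 without PGC replicate 3. H6PD turned to -0.0051 with 75th percentile centring. Under treat the calls ended for the brightest probe sets of PPAT and ADSS2 (adjusted p = 1 for both), the second UMPS probe set (0.0543), HPRT1 and MTHFD1, and 9 of the 16 probe sets stayed called. As a mean of all probe sets ADSS2 was not called, which left 5 enzymes called in PGC.

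Leaving out 1 array gave between 10 and 12 called probe sets of the 9 enzymes, the lowest without CEF replicate 2, and the brightest probe sets called ranged from 5 to 7. The replicate numbers did not pair the arrays: deviations of same-numbered PGC and CEF arrays correlated at -0.04, -0.01 and 0.01. With the replicate block 12 probe sets of the enzymes were called, as without it, and 9498 of all probe sets. The dim-probe filter, the variance model without trend and array weights also left 12 called. Values near background and values of single probe sets limit what can be said of size.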
